A study of Mus musculus with 18 samples.

Results

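The genes described here were 4 secreted products of gastric gland cells, *Pgc*, *Pga5*, *Cblif* and *Chia1*, together with *Bhlha15*, which encodes the chief cell transcription factor Mist1. They were chosen by name as the zymogens and the factor of the chief cell, and make up 5 of the 31201 gene symbols listed in the count tables of the study. All 5 were listed in both datasets and all 5 passed the expression filter of the 3 fits whose values are given here. Gastric units of wild-type (WT) male C57BL/6J mice aged 10 weeks, untreated, were dissociated, sorted to remove dead cells and profiled by Quartz-Seq2, a plate-based method that counts unique molecular identifiers (UMIs) in single wells. Dataset 1 came from corpus and antrum units in 2 pools, tube1 and tube2, of 3 plates each (ToPro3-negative cells in the labels, whereas the study's methods name propidium iodide), and dataset 2 came from corpus units, sorted as Hoechst33342-positive and ToPro3-negative cells, in 2 pools, K and T, of 6 plates each. Each pool combined 3 mice and was prepared by a different operator, so the pool was taken as the replicate and the plates of a pool as technical repeats. The question was how the products of the chief cell, and the factor that marks it, were distributed over the clusters of the gastric unit.

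Dataset 1 held 491 cells in 15 clusters and dataset 2 held 3993 cells in 20 clusters, as the annotation deposited with the counts gives them. Plates of dataset 1 summed to between 3054370 and 5346035 UMIs and those of dataset 2 to between 10540256 and 12850942, with medians of 38757 and 31020 UMIs per kept cell. The plates shared the same 384 well barcodes by design, so cells were told apart by plate and barcode. Levels are the UMIs of a gene per 1000000 UMIs (CPM) of the summed cells of a cluster and pool, with the mean ± SD over n = 2 pools. Levels were not divided by transcript length, and tests compare clusters within a gene. Where genes are set side by side, the values are numbers of UMIs captured.

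In the corpus gland, pit cells line the surface, proliferating cells occupy the isthmus, mucous neck cells lie beneath it and chief cells sit at the base, with parietal cells throughout. Chief cells store digestive proenzymes in granules and release them into the lumen, where acid converts pepsinogens into the protease pepsin. *Pgc* encodes pepsinogen C and *Pga5* a pepsinogen of the A group. *Cblif* encodes gastric intrinsic factor, the carrier needed for cobalamin uptake, *Chia1* encodes acidic mammalian chitinase, and Mist1 is a basic helix-loop-helix factor known for enlarging the secretory apparatus of serous exocrine cells.

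The 5 genes lie at separate places in GRCm39, the build named in the submitters' processing notes, here with GENCODE M39 gene models. *Pgc* spans chr17:48037760-48045407 on the plus strand with 9 exons, and *Pga5* spans chr19:10646320-10655435 on the minus strand with 9 exons. *Cblif* is on the same chromosome at chr19:11724918-11740811, plus strand, with 9 exons. *Chia1* spans chr3:106020545-106039436, plus strand, with 11 exons, and *Bhlha15* spans chr5:144127086-144131259, plus strand, with 2 exons. The 250 bases before the annotated start are shown for 3 products with contrasting patterns, 1 high in both neck and chief clusters, 1 highest in neck clusters and 1 highest in the chief cluster, *Pgc* (chr17:48037510-48037759), *Pga5* (chr19:10655436-10655685, minus strand) and *Chia1* (chr3:106020295-106020544). Each is written 5′ to 3′ on the strand of its gene, and capitals mark the TATAAA match found by a search of both strands.
Pgc: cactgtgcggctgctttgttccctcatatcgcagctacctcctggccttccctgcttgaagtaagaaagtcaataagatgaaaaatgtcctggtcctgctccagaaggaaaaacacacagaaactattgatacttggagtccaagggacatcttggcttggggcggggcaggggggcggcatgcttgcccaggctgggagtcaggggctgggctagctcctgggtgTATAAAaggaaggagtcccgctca
Pga5: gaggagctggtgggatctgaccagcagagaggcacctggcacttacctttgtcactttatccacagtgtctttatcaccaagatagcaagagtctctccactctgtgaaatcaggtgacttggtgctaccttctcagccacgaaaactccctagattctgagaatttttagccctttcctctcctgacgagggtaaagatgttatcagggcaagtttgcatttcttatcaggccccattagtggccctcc
Chia1: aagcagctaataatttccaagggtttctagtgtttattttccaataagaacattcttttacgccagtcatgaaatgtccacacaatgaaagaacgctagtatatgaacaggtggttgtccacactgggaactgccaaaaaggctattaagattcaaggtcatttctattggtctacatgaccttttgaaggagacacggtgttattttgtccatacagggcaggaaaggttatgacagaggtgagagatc
The TATAAA letters stood 24 bases before the *Pgc* start and in none of the other 4 windows, and 11.9% of the 21757 windows of the same length before protein-coding genes held them. The E-box letters CATATG and CAGCTG, forms of the motif that basic helix-loop-helix factors bind, were in none of the 5 windows and in 2.94% and 11.9% of all windows. A match or its absence describes these letters in this window alone.

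Transcripts of the 5 genes together made up 21.5% of all UMIs in the chief cluster of dataset 2 (cluster 10, 180 cells) and 14.7% in the neck clusters (0, 2, 7 and 12, 1247 cells). The share was 4.31% in the isthmus clusters, 2.39% in pre-pit cells, 1.09% in mature pit cells, 0.708% in parietal cells and 0.672% in the other clusters. In dataset 1 the share was 21.5% in cluster 10 (21 cells), 10.7% in the neck cluster and 2.45% in the isthmus-like cluster. Most of it was *Pgc*, with a median of 6489 UMIs per chief cell and 3283 per neck cell of dataset 2. Medians per chief cell of dataset 2 were 514.5 UMIs for *Cblif*, 34.5 for *Chia1* and 7 for *Bhlha15*, and 0 for *Pga5*. The 5 genes did not share a pattern. *Pgc* was high in the chief cluster and every neck cluster, *Pga5* was a neck transcript, *Cblif* was shared between the chief cluster and neck cluster 12, and *Chia1* was confined to the chief cluster apart from low levels elsewhere. *Bhlha15* was highest in the chief cluster, with a graded level through the neck clusters.

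**Figure D1:**
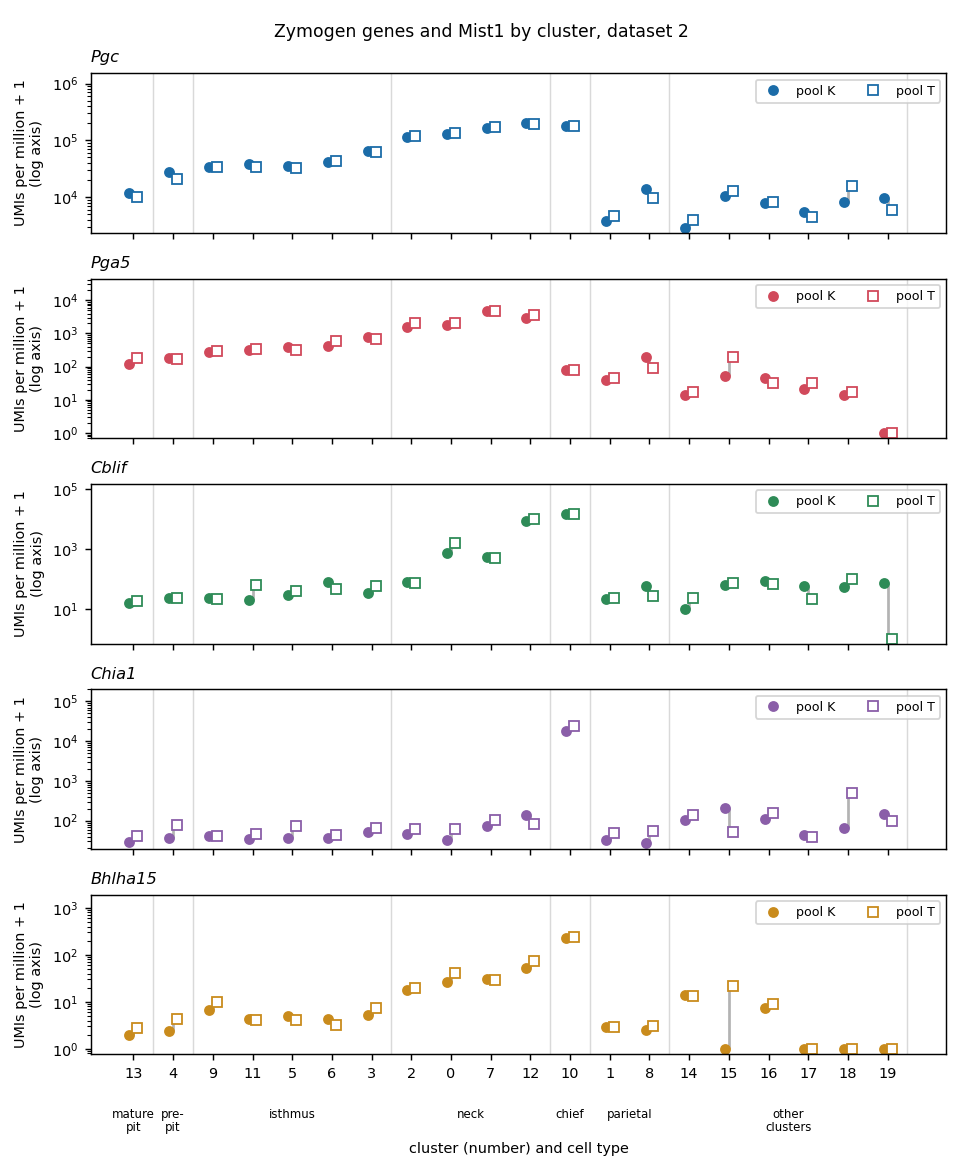
Level of each gene in the 20 clusters of dataset 2, as CPM plus 1 on a log axis, with clusters grouped by cell type on the horizontal axis. Filled circles are pool K, open squares pool T, and the grey line joins the pools. *Pga5* peaks in neck cluster 7 and drops in chief cluster 10, where *Cblif*, *Chia1* and *Bhlha15* peak.

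*Cblif*, *Pgc* and *Muc6* were among the genes that the study used to name neck and chief clusters, and the clusters were made from the same counts. The tests below therefore describe how far apart the clusters lie and are not independent evidence of their identity. Levels of genes outside the set describe the labelled clusters from the same counts and do not test the labels. *Clps*, which encodes colipase, was at 131310 CPM in the chief cluster of dataset 2 and at 54149 CPM in neck cluster 12. In the other neck clusters it was at 2720 to 7286 CPM. *Muc6*, the mucin gene that the study used as a neck marker, was at 33.97 CPM in the chief cluster. It was at 3467 CPM in neck cluster 7 and at 1648 CPM in neck cluster 12. Cluster 12, labelled neck, thus carried markers of both types. All 21 cells of cluster 10 of dataset 1 were named chief cells in the earlier annotation that the deposited metadata also carry. No doublet caller is named in the methods, and the cells with the most UMIs were left out as an alternative.

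*Pgc*, the pepsinogen C gene, was the most widespread of the set. In dataset 2 its highest level was in neck cluster 12, at 205400 CPM in pool K and 196270 CPM in pool T (200840 ± 6458). Chief cluster 10 followed at 180520 and 176980 CPM (178750 ± 2500), and neck cluster 7 at 166910 and 174210 CPM. The pool ranges of these 3 clusters did not overlap. Neck clusters 0 (130680 and 132450 CPM) and 2 (113690 and 117560 CPM) came next, with neither overlapping its neighbours. Isthmus cluster 3 was at 64629 and 61323 CPM and isthmus cluster 6 at 41082 and 42933 CPM, while isthmus clusters 11, 9 and 5 lay between 32782 and 38220 CPM and overlapped in that order. Pre-pit cells (27093 and 20789 CPM) lay below every isthmus cluster and above mature pit cells (11669 and 9969 CPM). Parietal cluster 8 (14041 and 9665 CPM) overlapped mature pit cells. So did clusters 18 (8083 and 15513 CPM) and 15 (10426 and 12951 CPM) of other cell types. Wells that the authors' filter left out held 25242 CPM over both pools, within the range of the pre-pit pools. Parietal cluster 1 was at 3735 and 4533 CPM, and cluster 14, with endocrine markers, overlapped it at 2885 and 3973 CPM, the lowest mean of the 20 clusters.

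Relative to the bulk of the genes, *Pgc* rose at most steps from the pit toward the chief cell. It was higher in chief than in neck cells by 1.14 ± 0.11 on the log2 scale (SE, adjusted p = 2.07e-06), in neck than in isthmus cells by 1.80 ± 0.11, and in isthmus than in pre-pit cells by 0.63 ± 0.11 (adjusted p = 6.71e-04). It was also higher in pre-pit than in mature pit cells by 1.01 ± 0.11 (adjusted p = 5.59e-05) and lower in parietal than in isthmus cells (-2.13 ± 0.11). In neck cluster 12 it exceeded the mean of neck clusters 0, 2 and 7 by 0.78 ± 0.09 (adjusted p = 2.75e-06). Between chief cluster 10 and neck cluster 12 the direction hung on the scaling. The test, which scales by trimmed means of M-values (TMM) to the bulk of the genes, placed the chief cluster higher by 0.49 ± 0.12 (adjusted p = 0.00292), whereas the plain CPM were lower in the chief cluster, by -0.17 on the log2 scale in the same fit without scaling. Going without scaling moved the median of all genes by -0.62 in that comparison and by -0.89 between chief and neck cells.

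*Pga5*, the other pepsinogen of the set, was highest in the neck clusters of dataset 2. Neck cluster 7 led, at 4708 and 4900 CPM (4804 ± 136), followed by neck cluster 12, at 2856 and 3545 CPM (3200 ± 487). Neck clusters 0 (1864 and 2106 CPM) and 2 (1526 and 2044 CPM) overlapped. The isthmus clusters ranged from 284 to 809 CPM, with cluster 3 the highest of them, pre-pit cells were at 182.8 and 166.6 CPM and mature pit cells at 121 and 183 CPM. Chief cluster 10 held 80.9 and 76.0 CPM (78.4 ± 3.46), below each neck, isthmus and pit cluster and above parietal cluster 1 (38.4 and 44.0 CPM). The 4 chief cells with the most *Pga5* carried much of it, and without them the level over both pools fell from 78.0 to 42.3 CPM. *Pga5* was lower in chief than in neck cells by 4.24 ± 0.20 on the log2 scale (adjusted p = 2.48e-09) and lower in chief cluster 10 than in neck cluster 12 by 4.70 ± 0.27 (adjusted p = 3.46e-12). It was higher in neck than in isthmus cells by 2.53 ± 0.17 and in isthmus than in pre-pit cells by 1.22 ± 0.17 (adjusted p = 1.36e-04). Its difference between pre-pit and mature pit cells was 0.04 ± 0.18, and its excess of 0.55 ± 0.18 in neck cluster 12 over the other neck clusters had an adjusted p of 0.0511, which did not pass. With the pool as a block it did (0.55 ± 0.16, adjusted p = 0.0235).

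The 2 pepsinogen genes thus parted between the neck and the chief clusters. Their log2 levels over the 20 clusters had a Pearson r of 0.79, as a description, since the clusters share libraries and depth. Of all *Pga5* UMIs in kept cells of dataset 2, 70.9% were in neck cells, 23.6% in isthmus cells and 0.48% in chief cells, which were 4.51% of the cells. Of all *Pgc* UMIs, 50.9% were in neck cells, 28.1% in isthmus cells and 14.3% in chief cells.

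**Figure D2:**
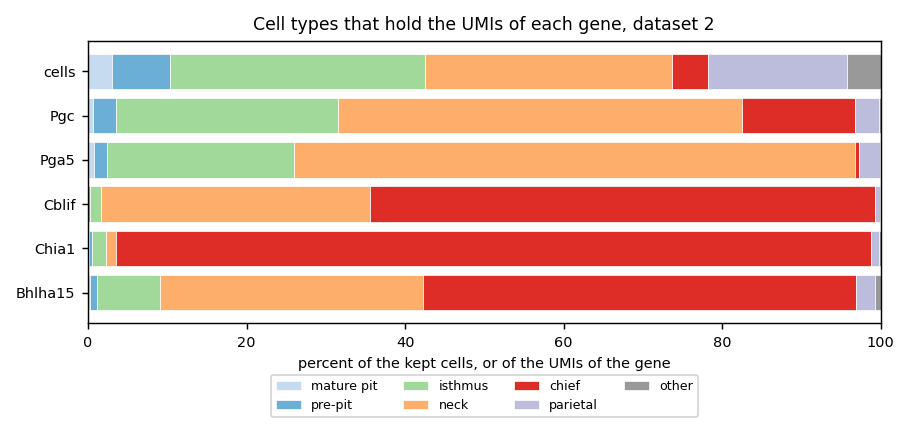
Share of the kept cells of dataset 2 (top bar) and of the UMIs of each gene that fell in each cell type, in percent, both pools together. Chief cells, 4.51% of the cells, carried 95.3% of *Chia1* UMIs and 0.48% of *Pga5* UMIs.

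*Cblif*, the intrinsic factor gene, was at 15395 and 14699 CPM (15047 ± 492) in chief cluster 10 of dataset 2 and at 8538 and 9847 CPM (9193 ± 926) in neck cluster 12. Neck cluster 0 was far lower, at 717 and 1615 CPM, and neck cluster 7 was at 537 and 495 CPM. These 4 clusters did not overlap. In neck cluster 2 the level was 77.2 and 75.6 CPM, within the range of the remaining clusters, which ran from 0 to 99.7 CPM. *Cblif* was higher in chief than in neck cells by 3.88 ± 0.19 (adjusted p = 3.48e-09) and higher in neck than in isthmus cells by 5.49 ± 0.20. Within the neck it separated cluster 12 from clusters 0, 2 and 7 by 4.91 ± 0.26 (adjusted p = 1.22e-12), and chief cluster 10 was above cluster 12 by 1.37 ± 0.34 (adjusted p = 0.0034). It was also higher in isthmus than in pre-pit cells by 0.68 ± 0.20 (adjusted p = 0.0239), a call lost without plate PID00166 or PID00158. Without scaling the difference between clusters 10 and 12 was 0.71 and did not pass. Chief cells held 63.7% and neck cells 33.9% of its UMIs.

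*Chia1*, the chitinase gene, was at 17831 and 23787 CPM (20809 ± 4212) in chief cluster 10 of dataset 2. Of the pit, isthmus, neck and parietal clusters the highest was neck cluster 12 at 137 and 79.8 CPM, and neck cluster 7 was at 70.5 and 106 CPM. The others of these types lay between 26.3 and 75.7 CPM, and most overlapped. Clusters 16 (107.4 and 157.6 CPM) and 14 (102 and 138 CPM), with endocrine markers, had higher means than neck cluster 12 and overlapped it. Other small clusters reached comparable levels, the highest being cluster 18 with 64.8 and 482 CPM from 5 and 29 UMIs. The rise from neck to chief cells was 9.14 ± 0.40 on the log2 scale (adjusted p = 1.50e-09). Between neck and isthmus cells the difference of 0.52 ± 0.30 did not pass (adjusted p = 0.160), and with the pool as a block it did (0.54 ± 0.14, adjusted p = 0.00344). With the block *Chia1* was also lower in isthmus than in pre-pit cells (-0.45 ± 0.16, adjusted p = 0.0375), which the fit without it did not call (-0.48 ± 0.31). Neck cluster 12 exceeded the other neck clusters by 1.09 ± 0.32 (adjusted p = 0.0307), a call lost when plate PID00166, PID00169, PID00158 or PID00163 was left out. Chief cells held 95.3% of *Chia1* UMIs.

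*Bhlha15*, the Mist1 gene, was at 230 and 241 CPM (235 ± 7.47) in chief cluster 10 of dataset 2 and at 50.8 and 71.5 CPM (61.2 ± 14.6) in neck cluster 12. Neck clusters 0 (25.2 and 39.3 CPM) and 7 (30.1 and 28.4 CPM) overlapped, and neck cluster 2 was at 16.8 and 18.9 CPM. The isthmus clusters lay between 2.25 and 8.94 CPM, pre-pit cells at 1.41 and 3.23 CPM and mature pit cells at 0.924 and 1.72 CPM. Cluster 14, with endocrine markers, held 13.3 and 12.4 CPM from 6 and 7 UMIs. *Bhlha15* was higher in chief than in neck cells by 3.68 ± 0.15 (adjusted p = 9.10e-10), in neck than in isthmus cells by 3.00 ± 0.18, in neck cluster 12 than in the other neck clusters by 1.45 ± 0.18 (adjusted p = 4.63e-06), and in chief cluster 10 than in neck cluster 12 by 2.62 ± 0.18 (adjusted p = 4.24e-11). Its differences of 0.59 ± 0.39 between isthmus and pre-pit cells and of 0.66 ± 0.74 between pre-pit and mature pit cells did not pass. Chief cells held 54.7%, neck cells 33.2% and isthmus cells 8.03% of its UMIs.

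The same steps can be read by how many of the set passed, beside the share of all tested genes that did. Between chief and neck cells all 5 passed, 4 higher and *Pga5* lower, where 38.6% of genes passed. Between neck and isthmus cells 4 passed, all higher, where 50.7% of genes did, and between isthmus and pre-pit cells 3 passed, where 27.8% did. Between pre-pit and mature pit cells only *Pgc* passed, where 10.4% of genes did. Between parietal and isthmus cells *Pgc*, *Pga5* (-2.10 ± 0.17) and *Bhlha15* (-0.67 ± 0.27, adjusted p = 0.0396) passed, all lower, where 71.8% of genes did. The *Bhlha15* call was lost without plate PID00166, PID00167, PID00164 or PID00165. Between neck cluster 12 and the other neck clusters 4 passed, where 10.3% of genes did, and between chief cluster 10 and neck cluster 12 all 5 passed, where 27.0% did. Between parietal clusters 8 and 1 *Pgc* (1.30 ± 0.12, adjusted p = 4.47e-08) and *Pga5* (1.58 ± 0.25, adjusted p = 3.47e-05) were higher in cluster 8, where 27.2% of genes passed.

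**Figure D3:**
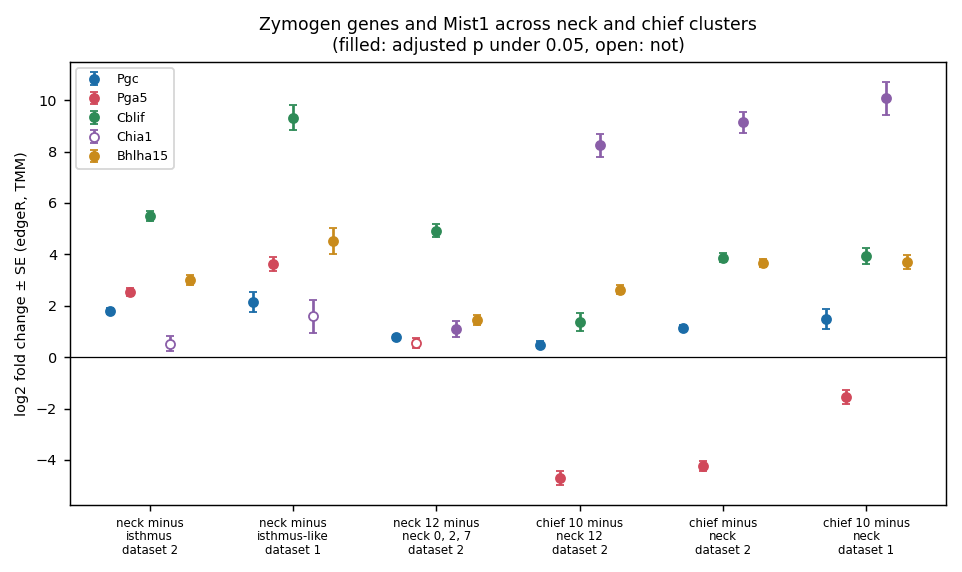
Log2 fold change ± SE of each gene for comparisons of neck and chief clusters in both datasets, from the edgeR fits over 2 pools per cluster or type. Filled points passed an adjusted p of 0.05 and open points did not. *Pga5* rises into the neck and falls into the chief cluster, and *Chia1* rises by 9.14 at the last step of dataset 2.

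In dataset 1, with corpus and antrum cells and far fewer cells per cluster, *Pgc* was at 165780 CPM in pool tube1 and 156320 CPM in pool tube2 in cluster 10 (161050 ± 6690). It was at 111680 and 97898 CPM in neck cluster 3 and at 17866 and 29498 CPM in the isthmus-like cluster 4-15, and the 3 clusters did not overlap. *Pga5* was highest in the neck cluster at 1246 and 1446 CPM, with 291 and 210 CPM in cluster 10 and 101 and 115 CPM in the isthmus-like cluster. *Cblif* was at 17310 and 19323 CPM in cluster 10 and at 2472 and 1926 CPM in the neck cluster. *Chia1* was at 17662 and 53693 CPM in cluster 10 (35677 ± 25477), a wide spread between pools, and at 98.4 and 32.2 CPM in the neck cluster. *Bhlha15* was at 343 and 237 CPM in cluster 10, at 45.1 and 37.7 CPM in the neck cluster and at 2.24 and 1.18 CPM in the isthmus-like cluster. The last value rests on 3 and 2 UMIs. The ratio of neck to isthmus-like level was 24.7, with an exact 95% interval of 10.04 to 78.8 for counting error only.

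**Figure D4:**
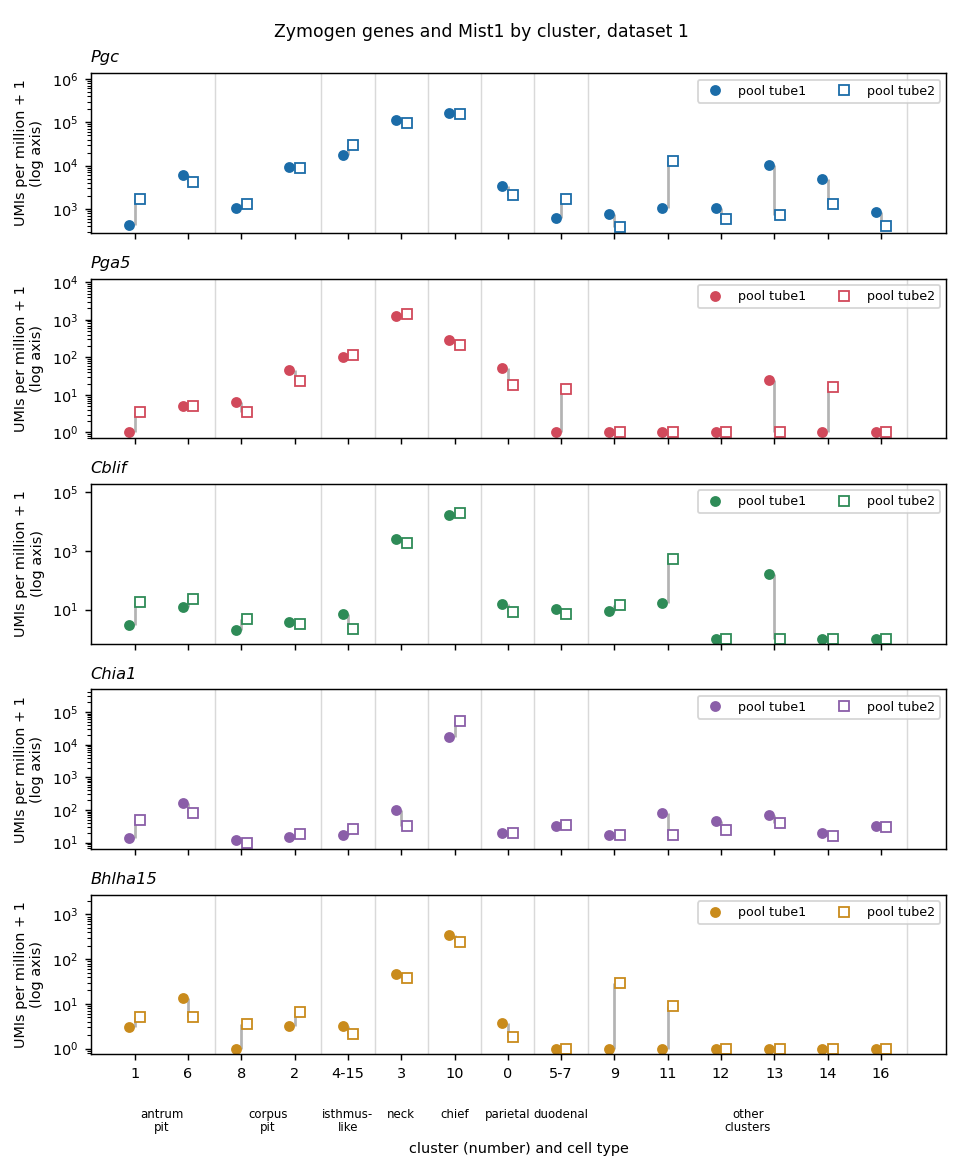
Level of each gene in the 15 clusters of dataset 1, as CPM plus 1 on a log axis, with clusters grouped by cell type on the horizontal axis. Filled circles are pool tube1, open squares pool tube2, and the grey line joins the pools. Cluster 10 is highest for *Pgc*, *Cblif*, *Chia1* and *Bhlha15*, and neck cluster 3 for *Pga5*.

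Between cluster 10 and the neck cluster of dataset 1 all 5 genes passed, where 18.6% of genes did. *Pga5* was lower in cluster 10 by 1.55 ± 0.26 (adjusted p = 2.46e-04), and *Pgc* was higher by 1.497 ± 0.39 (adjusted p = 0.00987), *Cblif* by 3.94 ± 0.31, *Chia1* by 10.07 ± 0.64 and *Bhlha15* by 3.70 ± 0.27. The *Pga5* call was lost without plate 23 and the *Pgc* call without plate 29. The *Pga5* level of cluster 10 came largely from 2 of its 21 cells, at 31.6 and 30.4 UMIs per 10000, where the next highest cell had 3.17. Without these cells the level over both pools fell from 251.8 to 29.0 CPM. Between the neck and the isthmus-like cluster *Pgc* (2.15 ± 0.40), *Pga5* (3.63 ± 0.26), *Cblif* (9.31 ± 0.48) and *Bhlha15* (4.51 ± 0.52) were higher in the neck, where 29.4% of genes passed, and *Chia1* (1.59 ± 0.65, adjusted p = 0.0725) did not pass, except with the pool as a block (1.65 ± 0.62, adjusted p = 0.0492). Between the isthmus-like cluster and corpus pre-pit cells *Pga5* (1.35 ± 0.33, adjusted p = 0.00566) and *Pgc* (1.11 ± 0.39, adjusted p = 0.0495) passed, where 20.1% of genes did, the *Pgc* call was lost without any 1 of the 6 plates, and the *Pga5* call without plate 24, 29 or 31.

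Dataset 1 also allowed pit cells of the antrum, a region whose glands have few chief cells, to be set beside those of the corpus. *Chia1* was at 158.96 and 80.6 CPM in antrum pre-pit cells (cluster 6) and at 14.3 and 18.1 CPM in corpus pre-pit cells (cluster 2). In all, 28.1% of the 32 cells of cluster 6 had a *Chia1* UMI beside 54.3% of the 46 cells of cluster 2. In mature pit cells *Chia1* was at 12.7 and 48.0 CPM in the antrum and at 10.99 and 8.86 CPM in the corpus, close to each other in tube1. *Pga5* was at 4.15 and 4.14 CPM in antrum pre-pit cells and at 45.1 and 22.6 CPM in corpus pre-pit cells. Over mature and pre-pit clusters together *Chia1* was higher in the antrum by 2.20 ± 0.54 (adjusted p = 0.0103) and *Cblif* by 2.16 ± 0.68 (adjusted p = 0.0490), where 9.24% of genes passed. *Pga5* differed by -2.52 ± 0.80 (adjusted p = 0.0515), which did not pass without the block and did with it (-2.53 ± 0.77, adjusted p = 0.0387). The *Cblif* levels behind the call were at most 22.7 CPM, and both calls were lost when cells with the most UMIs were left out. The *Cblif* call was also lost without plate 23, 29, 30 or 31, and the *Chia1* call without plate 23 or 29.

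Single cells differed in how uniform the genes were within the chief cluster of dataset 2. *Pgc* ranged from 874 to 2499 UMIs per 10000 UMIs of the cell, with a median of 1843. No chief cell lacked it, nor did any kept cell of the other clusters. *Cblif* had a median of 155, from 0.722 to 463. *Chia1* spanned from 0 to 1273, with a median of 10.1 and quartiles of 0.659 and 265. Of the 180 chief cells, 67 had over 100 *Chia1* UMIs per 10000, 90 had under 10 and 20 had none. Cells over 100 were 23 of 73 in pool K and 44 of 107 in pool T, and were found on all 12 plates. Only 7 cells lay between 80 and 120, around the upper of these bounds, which were set for description. In cluster 10 of dataset 1, 10 of 21 cells were over 100 and 7 were under 10, with 3 of 11 over 100 in tube1 and 7 of 10 in tube2.

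**Figure D5:**
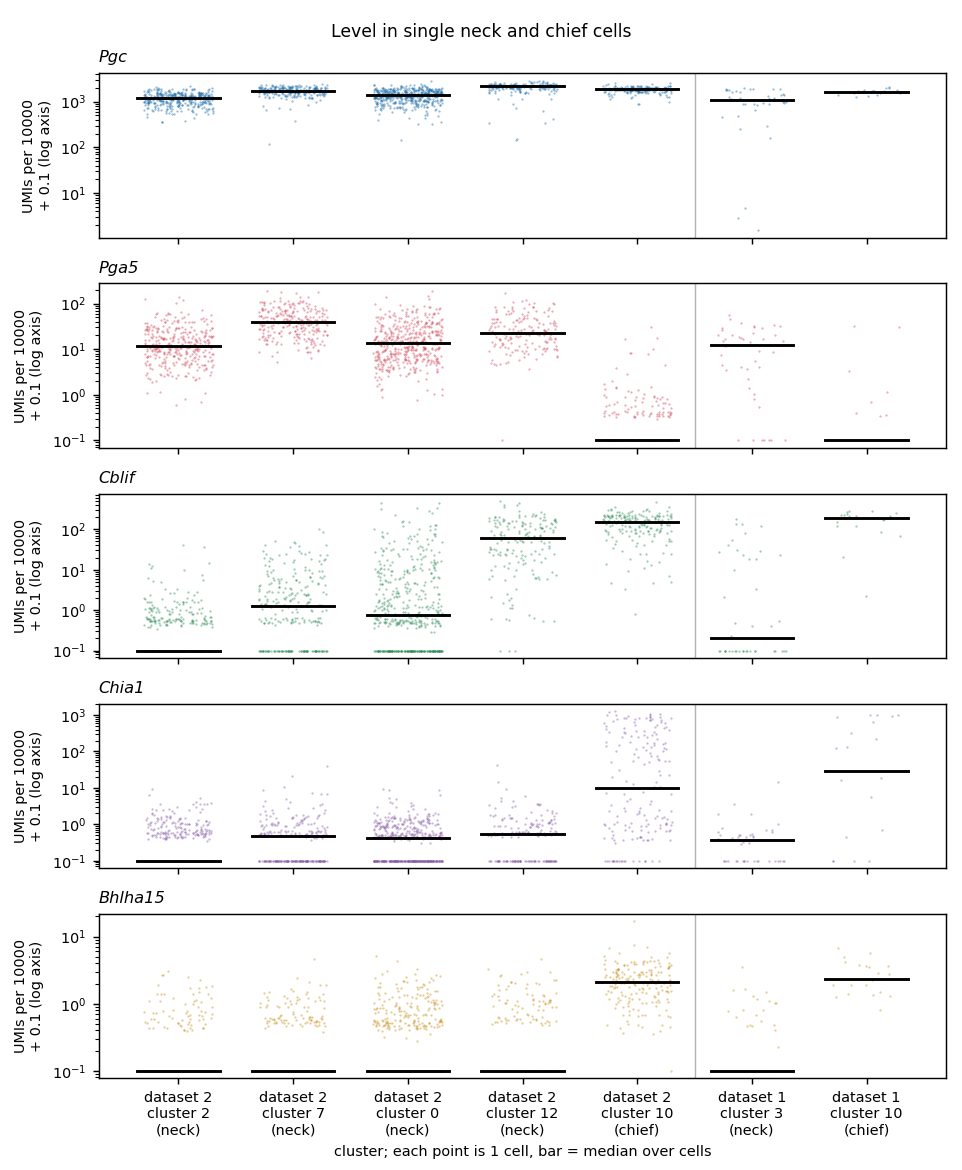
Level of each gene in single cells of neck and chief clusters of both datasets, as UMIs per 10000 UMIs of the cell plus 0.1 on a log axis. Each point is a cell and the black bar is the median, at 0.1 where the median is 0. In chief cells of dataset 2 *Chia1* spreads from 0 to 1273 around a median of 10.1, whereas *Pgc* stays between 874 and 2499.

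Medians of the other genes were taken over 3 ranges of *Chia1*. In chief cells with under 10, 10 to 100 and over 100 *Chia1* UMIs per 10000, median *Pgc* was 1906, 1819 and 1772 UMIs per 10000, and 1906, 1822 and 1862 when *Chia1* was taken out of the total. *Cblif* was at 135, 167.5 and 157, and *Bhlha15* at 1.72, 2.24 and 2.58. Median total UMIs were 33948, 34659 and 35842. Across the chief cells the Spearman rho of *Chia1* was 0.24 with *Bhlha15* (0.30 in pool K and 0.17 in pool T), -0.26 with *Pga5* and 0.24 with total UMIs. With *Pgc* it was -0.27, and -0.07 when *Chia1* was taken out of the total. These are weak and are given as descriptions across cells of 2 pools that share libraries. In cluster 10 of dataset 1, over 21 cells, rho was -0.71 with *Pga5* (-0.56 in tube1 and -0.70 in tube2). *Pga5* was 0 in 13 of the 21 cells, 5 of 11 in tube1 and 8 of 10 in tube2, so these values rest largely on ties. With total UMIs rho was 0.57 (0.33 in tube1 and 0.72 in tube2).

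Neck cells were mixed for *Cblif*. In cluster 12 of dataset 2 it had a median of 62.2 UMIs per 10000, with quartiles of 17.7 and 140 and a range from 0 to 500. In neck cluster 0 the median was 0.665, and 17 of 471 cells exceeded 100, with a highest value of 450. To compare shares of cells across depths, cells were thinned to 10000 UMIs and set against the 95th percentile of the non-epithelial and endocrine cells. By that measure *Cblif* was above background in 98.9% of chief cells, 91.0% of cells of neck cluster 12, 36.3% of cluster 7, 33.0% of cluster 0 and 4.91% of cluster 2, beside 4.44% of the background cells themselves. *Bhlha15* was above it in 55.6% of chief cells, 12.6% of cluster 12 and 6.18% of cluster 0, beside 2.96%, while unthinned cells with at least 1 UMI were 99.4%, 49.7%, 41.6% and 7.19%. *Pga5* was above it in 6.11% of chief cells, beside 3.70%, although 48.3% of chief cells had at least 1 UMI unthinned, and in 33.5% to 61.2% of cells of the isthmus clusters, a range that was 67.2% to 87.1% when cells were thinned to 20000 UMIs. *Chia1* was above it in 54.4% of chief cells and 2.99% of cluster 12, beside 5.19%. *Pgc* was above it in 100% of chief cells, 47.8% of pre-pit cells and 16.2% of mature pit cells, beside 5.19%. In parietal clusters 8 and 1 the *Pgc* share was 20.2% and 2.18%. Thinning kept all 180 chief cells, all but 6 of the 173 cells of cluster 12 and 135 background cells. Over all background cells, including those too shallow to thin, the median depth was 15685 UMIs, against 34844 in chief cells.

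Low levels outside the glands' secretory cells were compared with wells that the authors' filter left out (median 945 UMIs in dataset 2), which hold little RNA from a cell. For every 1000 *Pgc* UMIs, *Cblif* had 6.53 in the clusters of other cell types and 6.39 in the wells not kept, and *Pga5* had 6.13 and 5.44. *Chia1* had 17.7 and 24.9, but the wells not kept differed between pools (35.7 in K and 11.3 in T), so the direction turned between them. In neck cells these ratios were 12.6 for *Cblif*, 18.2 for *Pga5* and 0.453 for *Chia1*, and in chief cells 84.0, 0.437 and 120. The *Chia1* ratio in neck cells was lower than in other cell types and in the wells not kept of either pool. It divides by *Pgc*, which was high in neck cells, so it does not compare *Chia1* itself. *Chia1* was at 64.8 CPM in neck cells, 115 CPM in other cell types and 629 CPM in the wells not kept. In dataset 1 other cell types and wells not kept lay further apart, at 25.9 and 11.3 for *Cblif* and at 0.673 and 1.601 for *Pga5*, the latter from 2 and 65 UMIs. For *Bhlha15* the ratio in dataset 2 was 1.18 in other cell types, 0.120 in the wells not kept and 1.32 in chief cells. The first 2 rest on 21 and 5 UMIs. Of the 21, cluster 14, with endocrine markers, held 6 in pool K and 7 in pool T, and clusters 17, 18 and 19 held none. In dataset 1 the ratios were 3.36, 0.123 and 1.81 in the same order, the first 2 from 10 and 5 UMIs.

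Genes linked to Mist1 or to the secretory cell state split between chief and neck cells of dataset 2. Of 9 tested, 5 were higher in chief cells and 2 lower, with a median log2 difference of 0.65 beside -0.07 over all tested genes, of which 38.6% passed. *Tmed6*, of the family of vesicle cargo receptors (4.68 ± 0.12), *Rab26*, a granule GTPase gene (4.02 ± 0.57), *Copz2*, a coatomer subunit gene (2.08 ± 0.11), *Xbp1*, a factor of the unfolded protein response (1.23 ± 0.09), and *Rab3d*, another granule GTPase gene (0.65 ± 0.13), were higher. *Rab3d* alone of these turned on plain CPM (-0.17). *Agr2* (-2.56 ± 0.18) and *Creb3l4* (-2.86 ± 0.17) were lower. Between neck and isthmus cells 6 of the 9 were higher and none lower, including *Agr2* and *Creb3l4*, where 50.7% of all genes passed. In neck cluster 12, *Tmed6* (1.54), *Copz2* (0.71) and *Xbp1* (0.61) were higher than in the other neck clusters and none of the 9 was lower, where 10.3% of all genes passed. In dataset 1, 4 of 7 tested were higher and 2 lower in cluster 10 than in the neck, where 18.6% of all genes passed.

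Other genes reported for chief cells did not all follow the chief cluster. Of 8 tested in dataset 2, 5 were higher in chief than in neck cells and 3 lower, with a median of 0.95, where 38.6% of all genes passed. *Clps* (4.31 ± 0.19), *Cckbr*, the gastrin receptor gene (3.14), *Lgr5*, a stem cell receptor gene (2.69 ± 0.45), *Tnfrsf19* (1.53) and *Prkaca* (0.38) were higher, and *Gkn3* (-4.39), *Runx1* (-0.95) and *Lrig1* (-0.72) were lower. On plain CPM *Prkaca* turned to -0.43 and the others kept their sign. In dataset 1 only *Clps* and *Prkaca* were higher in cluster 10 than in the neck and *Gkn3* and *Lrig1* lower, of 7 tested where 18.6% of all genes passed. *Lgr5* was at -0.52 and *Tnfrsf19* at 1.47 there, neither passing. In neck cluster 12, *Gkn3* (4.098), *Lgr5* (4.19), *Clps* (3.67) and *Tnfrsf19* (2.20) were above the other neck clusters, the 4 that passed of 8, where 10.3% of all genes did. *Gkn3* was at 1832 CPM in cluster 12 and 14.1 CPM in chief cells, and *Lgr5* at 16.1 and 13.03 CPM. Neck genes were lower in chief than in neck cells in 6 of 6 cases, where 38.6% of all genes passed. *Muc6*, a marker in the naming of neck clusters, was at -4.81 ± 0.30, the water channel gene *Aqp5* at -3.96 and *Tff2* at -0.70. Between neck and isthmus cells 4 of the 6 were higher and *Tff2* was lower (-1.32), where 50.7% of all genes passed. *Tff2* was also lower in neck cluster 12 than in the other neck clusters (-1.17). Between chief cluster 10 and neck cluster 12 it did not pass (0.50). Of the other proteases and chitinases, 4 were tested between chief and neck cells and 1 passed, where 38.6% of all genes did. It was *Ctse*, the cathepsin E gene, lower in chief cells (-2.73 ± 0.18). *Lipf*, *Chia2* and *Pga3* were not among the gene names of the tables.

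The genes whose levels over the 20 clusters of dataset 2 were most like each member, among 13875 genes, differed from member to member. For *Pgc* they were *Gm15642* (Pearson r = 0.93), *Chrm1* (0.92), *Klk1* (0.91), *Eva1a* (0.91) and *Kcnj13* (0.90). For *Pga5* they included *A4gnt* (0.97), *Muc6* (0.96), *Uck2* (0.96) and *Acy1* (0.94), of which *A4gnt* encodes the enzyme that caps gland mucin glycans. For *Cblif* they included *Pla2g1b* (0.93), *Aldh1l2* (0.91), *Clps* (0.88) and *Gm19220* (0.88). For *Chia1* they were *Slc5a8*, *Mug1*, *Sostdc1*, *Gm12888* and *Creg2*, from 0.91 to 0.90. For *Bhlha15* they were *Try4* (0.91), *H13* (0.90), *Pnliprp2* (0.88), *Ell2* (0.88) and *Pycr1* (0.88). In dataset 1 the same pairs ranged from 0.91 to 0.97 for *Chia1*, but down to 0.23 for *Pgc* with *Eva1a* and 0.46 for *Cblif* with *Gm19220*. The Spearman rho of *Chia1* over the same clusters was between -0.07 and 0.08 with *Slc5a8*, *Mug1*, *Sostdc1* and *Gm12888*, and 0.61 with *Creg2*. The clusters share libraries, so these are descriptions of likeness. Among the members, *Cblif* and *Bhlha15* had an r of 0.80 in dataset 2 and 0.82 in dataset 1. *Pga5* and *Chia1* had an r of -0.22 in dataset 2 and 0.40 in dataset 1, so the sign turned.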

How the data were processed

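Quartz-Seq2 libraries of 18 plates were counted by the authors into UMI counts per gene symbol and well, and deposited as whole-number counts for each dataset together with the metadata of the kept cells. The submitters' processing notes name GRCm39. The authors kept wells with at least 2500 detected genes and clustered them; cluster numbers, pools and plates were read from the deposited metadata, and types from the study's text. The 4484 columns of the whole-series tables of kept cells were not used beside the plate tables. Counts were summed per cluster or type and pool (n = 2 pools per dataset) and tested by edgeR 4.0.16 in R 4.3.3 (filterByExpr, TMM, quasi-likelihood F-test, two-sided), with Benjamini-Hochberg adjustment over all 13894, 12922 or 10163 genes tested and a threshold of 0.05. The fits held 12 sums of types (6 residual degrees of freedom) and 28 sums of epithelial clusters (14) for dataset 2, and 16 sums (8) for dataset 1. SE is the log2 fold change divided by the square root of F. The fits were tested on simulated data.

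Sums of the same pool come from the same mice, which pairs them: over 15 pairs of types of dataset 2 the deviations of a pool correlated with a median r of 0.255 (0.102 to 0.665), and over 28 pairs of dataset 1 with a median of 0.0189 (-0.0213 to 0.104). A fit with the pool blocked was run beside each one. Other alternatives were DESeq2 1.42.0, its size factors in edgeR, no filter, a fit of only the types compared, a minimum of 4000 genes per cell, cells over the 98th percentile of UMIs left out, other thinning depths (5000 and 20000 UMIs), and each plate or pool left out. A fit without scaling factors was added after the data were seen. The pools were few, and p-values measure the spread between 2 pools of 3 mice. Intervals cover counting error only. Named genes were the 5 members, the genes of 4 lists (29 of 32 symbols found), and the 5 genes of highest Pearson correlation with each member over the clusters of dataset 2 (log2(CPM + 1), among genes of at least 10 CPM in a cluster), some of which are not reported here. The members and lists were chosen with earlier results of these data known. Python 3.11.15, numpy 2.4.6, pandas 2.3.3, scipy 1.17.1 and matplotlib 3.10.9 were used.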

Additional observations from a re-analysis of the deposited data

Results flagged for a closer look

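Of 20 groups of 6 plates in which the members were checked in chief and neck cells, 2 held a plate that stood apart, where chance gives about 1 in 20. *Pgc* in chief cells of pool T was at 195990 CPM on plate PID00164 (22 cells), with the next plate at 177080 CPM. *Chia1* in neck cells of pool K was at 112.3 CPM on plate PID00169 (117 cells), with the next plate at 60.07 CPM.

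The wells that were not kept, which enter no test and serve above only as background, held UMIs of all 5 genes above the limit that a count of 0 allows. In dataset 1 (1813 wells) the levels were 13460 CPM for *Pgc*, 21.5 CPM for *Pga5*, 152 CPM for *Cblif*, 470 CPM for *Chia1* and 1.66 CPM for *Bhlha15*. In dataset 2 (615 wells) they were 25242 CPM for *Pgc*, 137 CPM for *Pga5*, 161 CPM for *Cblif*, 629 CPM for *Chia1* and 3.02 CPM for *Bhlha15*.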

How the results depend on the processing

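Each result was recomputed under the alternatives, 1 choice at a time. In all, 785 values with a plate or pool left out and 481 under other settings counted as unchanged. A fold change counted so if it kept its direction and side of the threshold, or its direction alone where it had no test. Numbers of calls had to stay within a set ratio, levels within the SD over pools and shares of cells within their counting interval. Correlations had to keep their sign. Going without scaling factors, added after the data were seen, gave the largest changes. It moved the calls to 9800 between chief and neck cells, 2900 for neck cluster 12, 6831 for cluster 10 against 12 and 4896 for cluster 10 against the neck of dataset 1, from 5358, 1330, 3493 and 1888. The share of calls that were higher fell from 48.28% to 7.27%, from 49.77% to 11.34%, from 56.31% to 6.91% and from 51.11% to 5.92% in these. It went from 55.65% to 85.64% between isthmus and pre-pit cells, from 37.04% to 65.51% between pre-pit and mature pit cells, from 48.95% to 27.18% between parietal and isthmus cells, from 45.24% to 78.89% between parietal clusters, and from 52.94% to 81.56% between isthmus-like and pre-pit cells. Without scaling *Pgc* was at -0.17 and *Cblif* at 0.71 in cluster 10 against 12, and *Pgc* at 0.61 in cluster 10 against the neck of dataset 1, none of them passing. *Chia1* turned to -0.23 and *Cblif* passed at -0.60 between parietal and isthmus cells, and *Chia1* turned to 0.026 between parietal clusters.

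Without the filter *Chia1* passed between neck and isthmus (0.49), isthmus and pre-pit (-0.41), pre-pit and mature pit (0.58), parietal and isthmus cells (0.24) and neck and isthmus-like cells (1.53), as did *Cblif* between parietal clusters (0.72) and *Pgc* (-0.48) and *Pga5* (-2.53) between antrum and corpus pit cells. The share of higher calls was then 69.18% between isthmus and pre-pit cells, 36.31% for neck cluster 12 and 39.73% for cluster 10 against the neck of dataset 1. In a fit of only the types compared, *Chia1* passed between neck and isthmus (0.49) and isthmus-like cells (1.64), *Cblif* between parietal clusters (0.75), and *Pga5* in the antrum (-2.52), whereas *Pgc* in cluster 10 against 12 (0.43) did not; 4 fits of this kind gave no value for *Bhlha15* or *Cblif*. *Pga5* in neck cluster 12 passed in it (0.55), with DESeq2 size factors (0.57), with DESeq2 (0.57), without the filter (0.48) and with the block. DESeq2 lost *Chia1* in neck cluster 12 (1.09) and *Pgc* between isthmus-like and pre-pit cells (1.14), called 1260 genes in the latter against 2040, and called *Pga5* in the antrum (-2.54). Without the cells of most UMIs *Pgc* between isthmus-like and pre-pit cells (1.07) and the antrum calls of *Cblif* (2.07) and *Chia1* (2.19) were lost, and uncalled differences turned for *Pga5* between pre-pit and mature pit cells (-0.00087), *Bhlha15* between parietal clusters (0.23) and *Cblif* between isthmus-like and pre-pit cells (-0.080).

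Pairing the sums by pool, as a replicate block, gave calls that the fit without it lacked: *Chia1* between neck and isthmus (0.54), isthmus and pre-pit (-0.45) and neck and isthmus-like cells (1.65), and *Pga5* in neck cluster 12 (0.55) and in the antrum (-2.53). It changed no other call of a member.

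With each plate or pool left out in turn, the lowest and highest values of the results that changed were as follows. A fit without a pool has no residual spread and gives a value with no test. Between antrum and corpus pit cells they were 0.12 and 3.05 for *Bhlha15*, 0.92 and 2.73 for *Cblif*, 1.21 and 2.64 for *Chia1*, and 617 and 834 called genes against 939 (617 without plate 29, 625 without plate 23). In cluster 10 against the neck of dataset 1 they were -2.44 and -0.80 for *Pga5*, 1.36 and 1.67 for *Pgc* and 1252 (without plate 23) and 1765 called genes. Between isthmus-like and pre-pit cells they were -0.94 and 0.75 for *Cblif*, -0.23 and 0.31 for *Chia1*, 0.94 and 2.02 for *Pga5* and 0.70 and 1.43 for *Pgc*, and between neck and isthmus-like cells 0.34 and 2.63 for *Chia1*. In dataset 2 they were 0.54 and 0.74 for *Cblif* and -0.71 and 0.046 for *Chia1* between isthmus and pre-pit cells, 0.37 and 1.77 for *Chia1* and 0.48 and 0.61 for *Pga5* in neck cluster 12, and 0.38 and 0.66 for *Chia1* between neck and isthmus cells. They were -0.57 and 0.077 for *Bhlha15* between parietal clusters, -0.87 and -0.54 for *Bhlha15* and -0.43 and 0.21 for *Cblif* between parietal and isthmus cells, and -0.28 and 0.47 for *Pga5* between pre-pit and mature pit cells.

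Over shares of cells of dataset 2, counting at least 1 UMI gave 100% for *Pgc* in cluster 13, 22.8% for *Pga5*, 77.8% for *Chia1* and 80% for *Bhlha15* in cluster 10, 52.9% for *Cblif* in cluster 0 and 35.9% for *Bhlha15* in cluster 12. The 99th percentile gave 25.8% for *Cblif* in cluster 0, and 35.6% and 4.19% for *Bhlha15* in clusters 10 and 12. Thinning to 20000 UMIs gave 12.9% for *Pga5* and 80.9% for *Bhlha15* in cluster 10, 40.3% for *Cblif* in cluster 0 and 34.3% for *Bhlha15* in cluster 12, and thinning to 5000 gave 62.8% for *Bhlha15* in cluster 10. The mean over cells of *Bhlha15* in cluster 10 was 226.9 CPM, and the Spearman rho of *Chia1* and *Slc5a8* was -0.073. The cause of these changes was not tested.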

Other observations

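Cluster 11 of dataset 1 held *Cblif* at 15.9 CPM in tube1 and 519 CPM in tube2, and a single cell carried the second value, with 1125 *Pgc* and 45.5 *Cblif* UMIs per 10000. Without that cell the tube2 level was 9.13 CPM. In the neck cluster of dataset 1, 3 of 45 cells had under 10 *Pgc* UMIs per 10000.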
